A study of Arabidopsis thaliana with 15 samples.

Results

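The wild-type program of dark-induced senescence was described from 6 of the 15 arrays of the study, which were chosen by their labels and not by any measured value. They were the 3 arrays of Arabidopsis Col-0 WT after 5 days in darkness (5 days after dark treatment, 5 DAD) and the 3 arrays of Col-0 WT leaf in the light at 50 days after sowing (DAS). The study compared WT with plants altered in ANAC046, a NAC transcription factor that acts on chlorophyll (Chl) breakdown. Its other 9 arrays held 3 each of plants that overexpress ANAC046 from the constitutive 35S promoter (OX, leaf at 50 DAS), a putative transposon knockout (KO, 5 DAD) and 35S-driven ANAC046 fused to the SRDX repression domain (SRDX, 5 DAD). According to the labels, leaf plants grew on soil in a greenhouse, and dark-treated plants were seedlings on MS agar whose plates were wrapped in foil. The Methods instead describe leaves, with darkness starting at 35 DAS. No WT array of the same age, medium and tissue in the light was among these groups. The scan day and the array slide each held only 1 of the 2 WT groups. Darkness, age, growth medium, sampled tissue, slide and scan day therefore cannot be told apart, and every value below is a difference between these 2 groups of samples. The Methods describe the 3 arrays of a group as biological replicates, but neither source says what separated them, so p-values measure only the spread between these samples.

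Leaf senescence is the last stage of leaf development, in which Chl is degraded, the photosynthetic apparatus is dismantled and nitrogen and other nutrients are exported. Prolonged darkness starves the leaf of photosynthate and is the common way to induce senescence synchronously. In textbook accounts, starved leaf cells respire amino acids and fatty acids, induce autophagy, and activate NAC and WRKY transcription factors that switch on senescence-associated genes.

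Each array measured total RNA labelled with Cy3, as log2 signal relative to the median of the array. The 3 leaf arrays correlated at r = 0.985 to 0.988 across genes and the 3 dark arrays at 0.994 to 0.996, whereas leaf and dark arrays correlated at 0.742 to 0.771. The median SD between replicates was 0.14 on the log2 scale in both groups. Between 63.3% and 66.8% of spots on the leaf arrays and between 76.3% and 80.9% on the dark arrays were well above background, and the median signal over background was 5.60 to 6.29 and 9.65 to 11.4, so dim genes were detected more readily in the dark group. One leaf array stood apart: 176 genes were at least 4-fold higher on leaf replicate 1 than on the other 2 leaf arrays, where these agreed within 2-fold, against 65 and 88 for leaf replicates 2 and 3 and 3 to 12 for the dark arrays. Several senescence, defence and jasmonate genes named below were high on this array.

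Of 25949 genes tested, 7170 were called higher in the dark (27.6%) and 6464 lower (24.9%), 52.5% in all, at a Benjamini-Hochberg adjusted p under 0.15 and a change of at least 2-fold, with limma. The groups did not overlap for 82.5% of the tested genes, 43.5% higher and 39.1% lower in the dark, and 86.2% passed the p limit at any fold, 45.9% higher and 40.2% lower. With a background this large, a single call says little, and the lists below were read by the size of the changes and by the share of members called in each direction. The median difference of all tested genes was 0.13, and 1943 genes were at least 8-fold higher and 2135 at least 8-fold lower in the dark. Scaling each array to its 75th percentile moved that median to 0.28. Of the genes called higher, 4100 were above background on all 6 arrays and 1498 were above background on the dark arrays alone with a bound under 2-fold, so that their exact difference is not known. Of the genes called lower, 5601 were above background on all 6 arrays and 1 was above background on the leaf arrays alone with a bound under 2-fold. The lists hold 566 genes, of which 562 had a probe and 526 were tested. Of the 160 list genes called higher and 225 called lower, 135 and 205 were above background on all 6 arrays, and 3 had a bound under 2-fold: AHG1, an abscisic acid gene, and the tissue markers COBL9 and AP1. With genes measured in 1 group alone set at their bound (0 where the bound was under 1-fold), the median was 3.53 in place of 3.77 for senescence-associated genes, 3.48 in place of 3.88 for NAC factors, 1.87 in place of 2.28 for fatty acid oxidation, 0.16 in place of 0.45 for abscisic acid and 0 in place of 0.36 for nitrogen. The median of all tested genes became 0 in place of 0.13. The other list medians printed below, tissue markers and the SAUR family aside, did not move.

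**Figure D1:**
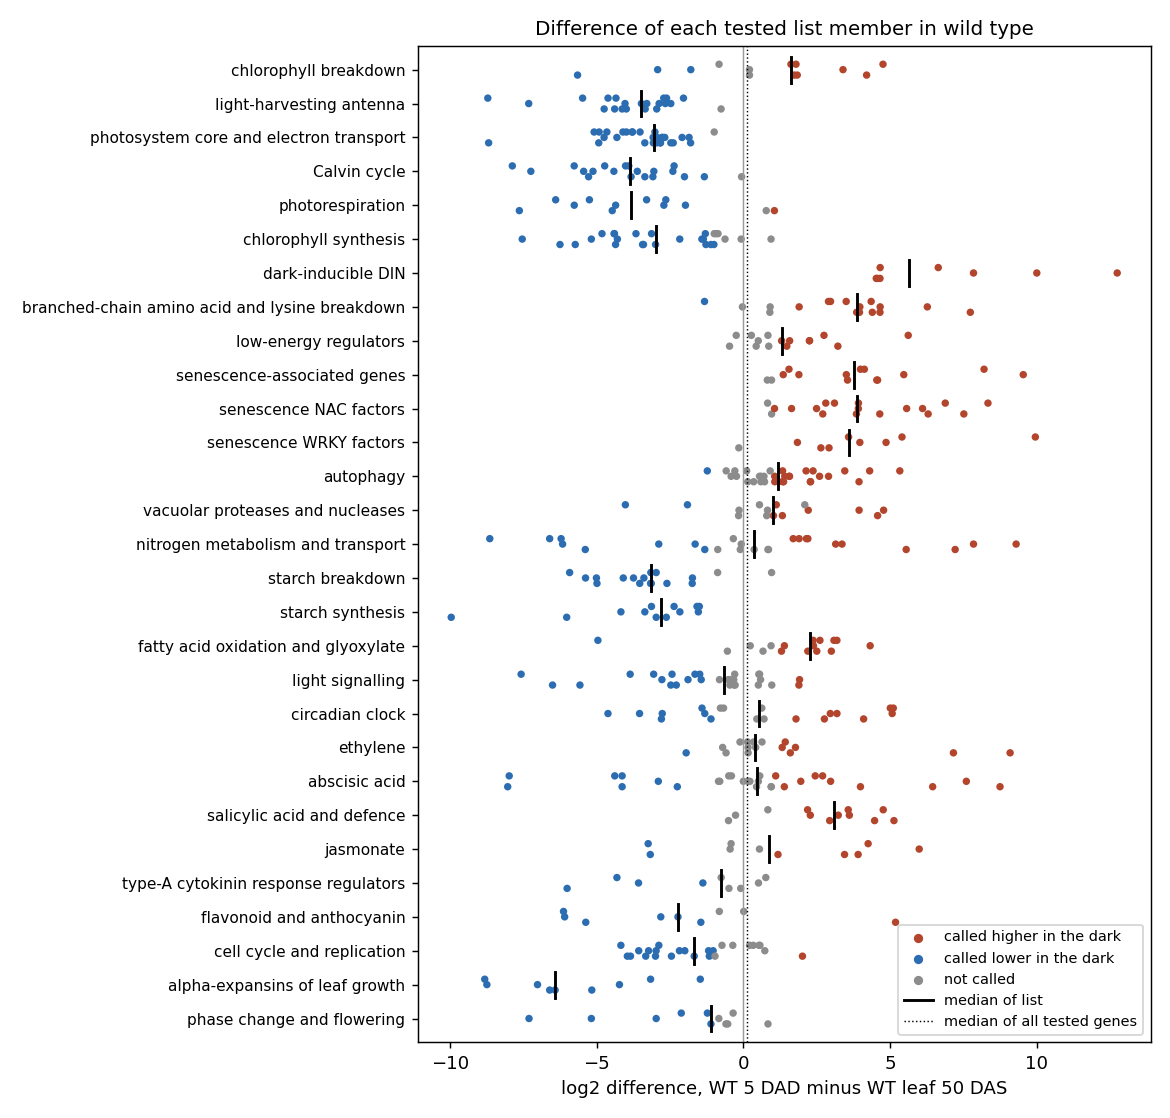
Log2 difference of WT 5 DAD minus WT leaf 50 DAS for every tested member of the gene lists, tissue markers left out, 1 point per gene, coloured by call, with the list median as a black bar and the median of all tested genes as a dotted line. Photosynthesis, chlorophyll synthesis, starch and expansin lists lie to the left of 0, while DIN, NAC, WRKY and senescence-associated genes lie to the right; the DIN median is 5.65 and the expansin median -6.42.

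The largest increases with signal on all arrays were in genes of several functions. GLYI7, named as a member of the glyoxalase I family, rose by 10.25 ± 0.64 (SE, log2, n = 3 per group, adjusted p = 1.535e-05), with signals of 1.28, -1.39 and -0.40 in the leaves and 10.06, 10.14 and 10.06 in the dark. AOX1D, an alternative oxidase of the mitochondrial respiratory chain, had -0.25, -1.26 and -1.34 in the leaves and 8.31, 7.95 and 7.91 in the dark. Both genes were near the array median in every leaf and far above it in every dark sample. The other 10 of the 12 largest increases, of 8.72 to 10.14, were DIN11, MAPKKK19 (a MAP kinase kinase kinase), XTH11, GDPD2 (a glycerophosphodiester phosphodiesterase), CCOAMT (an O-methyltransferase), NIT2 (a nitrilase), AT3G59930, AT4G16260, AT2G27389 and AT2G31945. NIT2 depended on the leaf array chosen, with 5.10 on leaf replicate 1 against -0.25 and -0.54 on the others, and 10.39 to 10.60 in the dark. Its difference of 9.08 became 10.91 without leaf replicate 1, 8.24 without leaf replicate 2 and 8.10 without leaf replicate 3.

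Among genes above background in the dark group alone, GAT1_2.1, annotated as a glutamine amidotransferase, was at least 2061-fold higher, with signals of 8.51, 8.51 and 8.40 in the dark. MIOX4, a myo-inositol oxygenase, was at least 1482-fold higher at 8.16, 7.92 and 7.92. These bounds set the mean of the bright group against the dimmest signal still well above background on each array of the other group. AT3G04320 (at least 1524-fold), ZF14 (at least 991-fold) and AT1G62760 (at least 614-fold) completed the 5 largest bounds in that direction.

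Of the genes with signal on all arrays, AT1G29660 fell by 11.78 ± 0.11, from 8.84, 8.89 and 8.86 in the leaves to -2.87, -3.13 and -2.76 in the dark. NEET, an iron-sulfur protein, fell by 10.66, from 8.33, 8.62 and 8.23 to -2.44, -2.26 and -2.11. All leaf replicates of both genes were bright and all dark replicates were dim. Of the chloroplast NDH complex, which carries electrons around photosystem I, 3 subunits were among the 12 largest decreases: NdhL fell by 9.42, NdhN by 9.13 and NdhM by 9.01. The list also held GBSS1 (granule-bound starch synthase), PPT2 (a phosphoenolpyruvate translocator of the plastid), BBX16 (a B-box factor), AT3G16370, AT5G55620, AT1G26790 and AT4G24780. Among genes above background in the leaf group alone, XTH7, a xyloglucan-modifying cell wall enzyme, was at least 3125-fold lower in the dark, with 7.50, 7.49 and 7.31 in the leaves. AT5G18030 (at least 514-fold), IAA29 (at least 460-fold), a member of the auxin-responsive Aux/IAA family, AT1G06080 (ADS1, a desaturase, at least 511-fold) and AT5G01015 (at least 450-fold) followed.

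Of 13 genes of Chl breakdown, 7 rose (53.8%), 3 fell (23.1%) and 3 were not called, against 27.6% higher and 24.9% lower among all tested genes. The summed signal of the 13 probes was 650 to 665 times the array median in the leaves and 2042 to 2171 in the dark. NYC1, the Chl b reductase that opens the pathway, rose by 4.2 ± 0.11 (18.4-fold, adjusted p = 6.791e-07), from 5.74, 5.8 and 5.48 to 9.81, 9.98 and 9.83. SGR1, the Mg-dechelatase that releases magnesium from Chl a, rose by 3.39 ± 0.09, from 3.44, 3.26 and 3.41 to 6.83, 6.76 and 6.71. Its paralogue SGR2, which the paper describes as a negative regulator of Chl degradation during senescence, is counted in this list. SGR2 rose by 4.76 ± 0.15, from 1.72, 1.3 and 1.73 to 6.19, 6.44 and 6.4. No replicate of either group overlapped with the other for these 3 genes. The later enzymes rose less. PPH, which removes the phytol tail, rose by 1.62 ± 0.14, and PAO, the oxygenase that opens the ring, by 1.73 ± 0.11, from 6.21, 5.98 and 6.21 to 8.01, 7.83 and 7.76. CYP89A9 and MES16, which modify the colourless catabolites, rose by 1.83 and 1.79.

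RCCR, which acts right after PAO, went the other way and fell by 1.80 ± 0.10, from 5.72, 5.64 and 5.79 to 3.83, 3.87 and 4.06. The chlorophyllase CLH2 fell by 2.93, from 3.24 to 3.80 in the leaves to 0.51 to 0.67 in the dark, and AT1G44000, which the reference table does not name, fell by 5.66. The chlorophyllase CLH1 (difference 0.21 ± 0.35, adjusted p = 0.6026), NOL (0.20), which pairs with NYC1, and HCAR (-0.83), which completes the conversion of Chl b to Chl a, were not called. CLH1 overlapped between groups and turned to -0.11 without dark replicate 1.

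**Figure D2:**
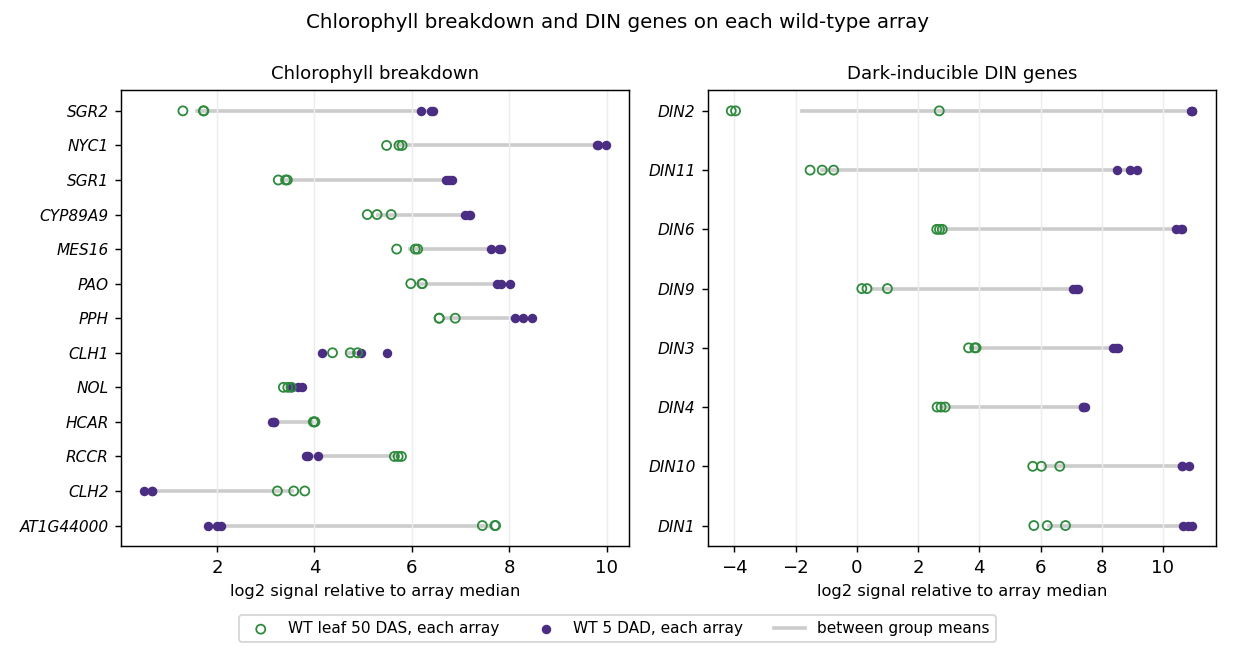
Log2 signal relative to the array median on each WT array for 13 genes of Chl breakdown (left) and 8 DIN genes (right), open green circles for the 3 leaf arrays and filled purple points for the 3 dark arrays. NYC1, SGR1 and SGR2 lie well to the right in the dark, RCCR, CLH2 and AT1G44000 to the left, and DIN2 shows 1 leaf array at 2.69 apart from the other 2.

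Genes of the photosynthetic apparatus fell almost throughout. Of 21 antenna genes of the light-harvesting complexes, 20 fell and none rose (median -3.48), and their summed signal was 22634 to 23149 in the leaves and 2765 to 2902 in the dark. Of 30 nuclear genes of the photosystem cores and electron transport, 29 fell (median -3.05). Within both lists the size of the decrease varied widely. PSBS, which mediates energy-dependent quenching, fell by 8.69 ± 0.15, from 8.73, 8.87 and 8.58 to -0.24, 0.12 and 0.24. LHCA6, an antenna protein that links photosystem I to the NDH complex, fell by 8.72, from 7.55, 7.51 and 6.91 to -1.34, -1.29 and -1.55. LHCB2.3 fell by 7.32 and LHCB3 by 5.48, both of them antenna proteins of photosystem II. At the other end, LHCB4.1, a minor antenna protein, gave -0.76 ± 0.07 and PSBR, a subunit of photosystem II, -1.0 ± 0.10, with dark signals of 9.08 to 9.14 and 9.45 to 9.72. Both stood just short of the 2-fold limit and passed it under 75th percentile scaling, at -1.55 and -1.89. Antenna genes are a family of near-identical copies, and their probes may share target RNA.

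Of 20 Calvin cycle genes 19 fell (median -3.87). GAPB, a subunit of glyceraldehyde-3-phosphate dehydrogenase, fell by 7.88 ± 0.09, from 9.95, 10.02 and 9.84 to 2.01, 2.03 and 2.13. SBPASE, the phosphatase of the regeneration phase, fell by 7.25, and PRK, which makes the CO2 acceptor, by 5.77. CP12-1, a small protein that holds GAPDH and PRK in an inactive complex in the dark, was the 1 member not called: it read 10.14, 10.07 and 10.19 in the leaves and 10.01, 10.12 and 10.08 in the dark, a difference of -0.06 ± 0.08. The groups overlapped for CP12-1.

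In photorespiration, which recycles phosphoglycolate, 10 of 12 genes fell (median -3.83), led by GLDP1 (-7.64) and SHM1 (-6.4), which act on glycine in mitochondria. AGT1, a peroxisomal aminotransferase, gave 0.78 ± 0.08 and was not called. Its sign turned under 75th percentile scaling (-0.14), whereas it was called higher at 1.39 as the mean of all its probes. AT1G80380 was called higher by 1.06, and lost the call when leaf replicate 3 (0.96) or dark replicate 1 (1.0) was left out. Of 27 genes of Chl synthesis, 21 fell and none was called higher (median -3.0). CHLH, a subunit of Mg-chelatase, fell by 6.26 ± 0.15, from 9.33, 9.31 and 8.97 to 3.17, 2.82 and 2.85. DVR fell by 7.54, GUN4 by 5.19 and PORC, a light-dependent protochlorophyllide reductase, by 5.74. HEMA2, an isoform of glutamyl-tRNA reductase, gave 0.94 ± 0.12 and was not called.

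The DIN genes were originally isolated by their induction in darkened leaves, so that their direction here is not independent of how they were found. All 8 rose (median 5.65, lowest 4.53). DIN11, an oxygenase, had -0.76, -1.13 and -1.53 in the leaves and 9.17, 8.92 and 8.5 in the dark, a 1025-fold difference. DIN6, an asparagine synthetase (ASN1), rose by 7.84 ± 0.10, from 2.79, 2.61 and 2.70 to 10.63, 10.43 and 10.58. DIN9, DIN3, DIN4, DIN10 and DIN1 rose by 6.64, 4.66, 4.65, 4.56 and 4.53. DIN2, a beta-glucosidase, read 2.69, -3.96 and -4.10 in the leaves and 10.96, 10.96 and 10.92 in the dark. Leaf replicate 1 was the 1 leaf array above background, and the difference of 12.74 ± 1.83 carried a leaf SD of 3.88. Against the other 2 leaf arrays alone, DIN2 was at least 10360-fold higher.

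Most genes for the breakdown of branched-chain amino acids and lysine rose. Of 17 genes 13 were called higher and 1 lower (median 3.86), and the summed signal was 248 to 253 in the leaves and 3749 to 4134 in the dark. BCAT2, an aminotransferase at the entry of the branched-chain pathway, rose by 7.74 ± 0.22, from 1.32, 2.05 and 1.32 to 9.42, 9.26 and 9.22. LKR/SDH, the bifunctional enzyme of lysine breakdown, rose by 6.27, from 3.90, 3.64 and 3.40 to 9.61, 10.17 and 9.98. IVD, a dehydrogenase that feeds electrons to the respiratory chain, rose by 4.39. DIN3 and DIN4 belong to this list as well. CHY1, a peroxisomal hydrolase of valine breakdown, fell by 1.33, but gave -0.54 as the mean of its probes.

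Regulators of the low-energy response act upstream of these genes. Of 15 tested genes around the kinase SnRK1, 8 rose (53.3%, against 27.6% of all tested genes) and none fell (median 1.3). The bZIP factor bZIP1 rose by 5.62 ± 0.14, from 4.04, 4.40 and 4.0 to 9.64, 9.84 and 9.82, bZIP53 by 2.25, and the trehalose-phosphate synthase homologue TPS11 by 3.22. Of the 2 catalytic subunits of SnRK1, KIN11 rose by 1.57 ± 0.10 and KIN10 gave -0.47 ± 0.09, short of 2-fold. bZIP63 gave 0.27.

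Most transcription factors linked to senescence rose. Of 18 NAC genes 16 rose and none fell (median 3.88). ANAC046 read 0.42, 0.54 and 0.77 in the leaves and 5.11, 5.35 and 5.22 in the dark, a difference of 4.65 ± 0.12 (25.1-fold, adjusted p = 6.46e-07). ANAC055 and ANAC019, paralogues in jasmonate and abscisic acid responses, rose further: ANAC055 by 8.34, from 0.20, 0.68 and 0.05 to 8.77, 8.41 and 8.77, and ANAC019 by 7.51. JUB1, in Arabidopsis a negative regulator of senescence, rose by 6.88 with 2 of 3 leaf arrays above background, ANAC047 by 6.30 and ANAC087 by 6.11. The positive regulators ORE1, ORS1 and NAP rose by 2.81, 2.70 and 1.64, and they were already well expressed in the leaves. NAP, for example, read 6.59, 6.69 and 6.59 in the leaves and 8.31, 8.27 and 8.21 in the dark. VNI2, which antagonises senescence, gave 0.96 ± 0.12, and ANAC032 gave 0.82. Neither was called.

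Of 9 WRKY genes 8 rose (median 3.58). WRKY75 rose by 9.95 ± 0.71, from -0.63, -2.94 and -3.43 to 7.61, 7.71 and 7.54. Only leaf replicate 1 was above background among the leaves, and against the other 2 leaf arrays WRKY75 was at least 1029-fold higher. WRKY55 rose by 5.41, WRKY70, which restrains senescence, by 4.86 and WRKY53, which promotes it, by 2.92. WRKY57 gave -0.16 and its groups overlapped.

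Of 14 senescence-associated genes 12 rose and none fell (median 3.77). SAG14 rose by 8.20 ± 0.45, from 4.07, 2.45 and 2.48 to 11.05, 11.33 and 11.24. SAG113, a protein phosphatase of abscisic acid signalling, rose by 3.99. SAG12, the cysteine protease that is the classical marker of age-dependent senescence, was at least 8.85-fold higher, with -0.63, 2.09 and 0.37 in the dark and no leaf array above background. The dark replicates of SAG12 were far more spread (SD 1.38) than those of most genes. SAG29, a SWEET sugar transporter, varied in the same way, with 0.54, 4.07 and 0.87 in the dark and -0.59, -5.18 and -2.40 in the leaves, where replicate 2 was not above background. Its difference was 4.55, with 5.61 without leaf replicate 1 and 3.32 without leaf replicate 2. Without dark replicate 1 it was 5.19, and without dark replicate 2 it was 3.42. SAG13 read 4.55 on leaf replicate 1 against -0.11 and -0.38 on the other leaf arrays, and 6.76, 6.88 and 6.83 in the dark. Its increase of 5.47 became 7.07 without leaf replicate 1, 4.73 without leaf replicate 2 and 4.60 without leaf replicate 3. YLS9, above background on leaf replicate 1 alone among the leaves, rose by 9.54, and was at least 1088-fold higher against the other 2 leaf arrays.

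**Figure D3:**
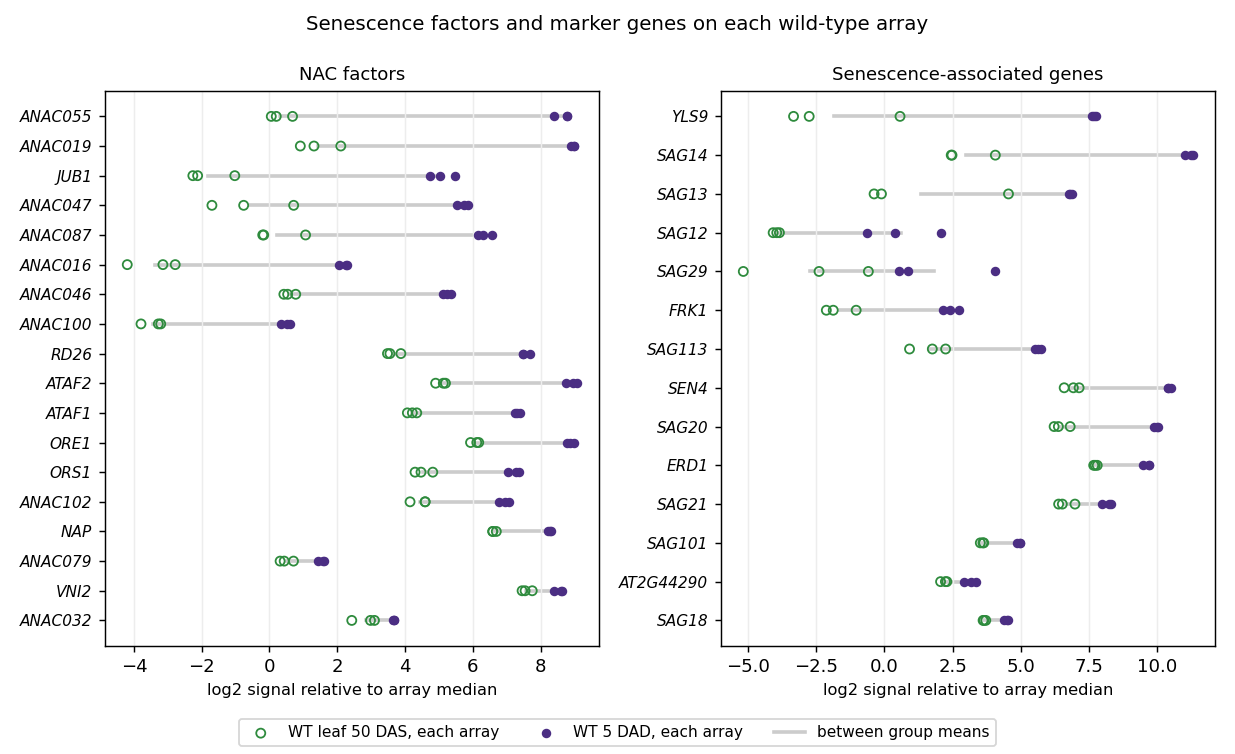
Log2 signal relative to the array median on each WT array for 18 NAC genes (left) and 14 senescence-associated genes (right), open green circles for leaf arrays and filled purple points for dark arrays. The dark points lie to the right of all leaf points for every gene shown, and the replicates are widely spread for SAG12 and SAG29 in the dark and for SAG13 and YLS9 in the leaves.

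Autophagy encloses cytoplasm in membranes and delivers it to the vacuole. Of 33 genes of its machinery 19 rose (57.6%) and 1 fell (3%), with a median of 1.19. Of all tested genes, 27.6% were called higher and 24.9% lower. The largest increases were in ATG8H (5.33 ± 0.11, from 3.25, 3.09 and 3.18 to 8.32, 8.55 and 8.65) and ATG8E (4.3), which encode the ubiquitin-like protein of the autophagosome membrane, and in ATG7 (3.94), its activating enzyme. ATG10 fell by 1.23, and gave -0.78 in the authors' table. Of 15 tested genes of vacuolar proteases, nucleases and phosphatases, 7 rose (46.7%) and 2 fell (13.3%), with a median of 1.02. BFN1, a senescence nuclease, rose by 4.78 ± 0.19, from 0.68, 0.50 and 0.21 to 4.91, 5.51 and 5.30. PAP17, an acid phosphatase, rose by 3.94. RD21A, an abundant papain-type protease, rose by 1.12, and gave 0.46 under 75th percentile scaling, below the 2-fold limit. The vacuolar processing enzyme beta-VPE fell by 4.03 with 2 of 3 dark arrays above background, while gamma-VPE gave -0.17, and 0.49 as the mean of its probes. RNS1, a ribonuclease, read 1.51, -3.51 and -0.34 in the leaves and 1.24, 1.0 and 1.69 in the dark, so that its difference of 2.09 was not called with all arrays (adjusted p = 0.1543) and was called at 3.24 without leaf replicate 1. Leaf replicate 2 was not above background for RNS1, and without it the difference was 0.73 and was not called.

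Of 25 tested genes of nitrogen metabolism and transport, 10 rose, 8 fell and 7 were not called (median 0.36). The shares of 40% higher and 32% lower compare with 27.6% and 24.9% of all tested genes. Among those that rose were GDH2, a glutamate dehydrogenase, by 7.22 ± 0.16 (2.70, 2.09 and 2.3 to 9.65, 9.57 and 9.52), ProDH1, the proline dehydrogenase, by 5.55, and PPDK, which is used in making transport amino acids, by 3.36. Among those that fell were NIA2, the major nitrate reductase, by 6.22 ± 0.22 (9.76, 9.51 and 9.56 to 3.45, 3.80 and 2.93), the nitrite reductase NIR1 by 5.39, the plastid glutamine synthetase GLN2 by 6.17 and the ferredoxin-dependent glutamate synthase GLU1 by 6.61. The cytosolic glutamine synthetases differed: GLN1;3 rose by 1.90, GLN1;2 fell by 1.65 and GLN1;4 by 1.32, and GLN1;1 gave 0.83 and was not called. As the mean of all probes GLN1;1 gave 2.84 and was called, and GLN1;2 gave -0.82 and was not. The asparagine synthetases went in opposite directions: ASN2 fell by 8.65, from 6.19, 5.81 and 6.22 to -2.78, -2.22 and -2.73, whereas DIN6 (ASN1) was among the genes that rose.

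Genes of starch turnover fell in both directions of the pathway. All 12 genes of starch synthesis fell (median -2.80). GBSS1, which makes amylose, fell by 9.96 ± 0.15, from 7.30, 7.14 and 6.80 to -2.83, -2.79 and -3.03, and ADG1, the small subunit of ADP-glucose pyrophosphorylase, by 6.03. Of 17 tested genes of starch breakdown 15 fell and none rose (median -3.17), among them the phosphatase SEX4 (5.28, 4.89 and 5.37 to -0.94, -0.69 and -0.61) and the phosphorylase PHS2, which fell by 5.38. BAM1, a beta-amylase, gave 0.96 ± 0.09, short of the limit.

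Of 16 tested genes of peroxisomal fatty acid oxidation and the glyoxylate cycle, 11 rose and 1 fell (median 2.28). PED1, the thiolase of beta-oxidation, rose by 3.19 ± 0.10, from 7.0, 6.77 and 7.01 to 10.06, 10.21 and 10.06. CSY2, a citrate synthase, rose by 3.09 and MFP2 by 3.0. ICL, isocitrate lyase of the glyoxylate cycle, was above background in the dark group alone and at least 2.90-fold higher. PMDH2, a peroxisomal malate dehydrogenase, fell by 4.96, from 8.35, 8.35 and 8.33 to 3.36, 3.42 and 3.37, which set it apart from the rest of the list.

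Of 28 light signalling genes, 2 rose (7.1%) and 13 fell (46.4%), with a median of -0.67. Of all tested genes, 27.6% were called higher and 24.9% lower. The photoreceptor gene PHYA, whose protein is light-labile, read 6.26, 6.30 and 6.11 in the leaves and 6.14, 5.85 and 5.74 in the dark, and the groups overlapped (difference -0.32 ± 0.13, not called). PHYB gave -0.52 ± 0.13, also not called. Among the phytochrome-interacting factors, PIF4 rose by 1.91 ± 0.18 (3.84, 3.89 and 4.44 to 6.07, 5.84 and 6.0), whereas PIF7 fell by 5.58, PIF1 by 2.44 and PIF5 by 1.49, and PIF3 gave -0.46. HFR1, an atypical bHLH protein of shade responses, rose by 1.89. ELIP1, a photoprotective early light-induced protein, fell by 7.58 ± 0.19, from 4.87, 5.12 and 5.21 to -2.34, -2.32 and -2.89, and ELIP2 was at least 51.2-fold lower. GLK2, an activator of chloroplast genes, fell by 3.06 and HYH, a bZIP factor of photomorphogenesis, by 3.86.

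The circadian clock consists of morning and evening genes that repress each other, so that levels depend on the time of day at harvest, which is not given in the sources used here. Of 20 clock genes 8 rose and 7 fell (median 0.54). The shares of 40% higher and 35% lower compare with 27.6% and 24.9% of all tested genes. CCA1, LHY and RVE1 fell: CCA1 by 2.80 ± 0.09 (7.47, 7.38 and 7.28 to 4.62, 4.63 and 4.50), LHY by 3.54 and RVE1 by 4.62. PRR7 rose by 5.11 ± 0.16, from -0.43, -0.37 and -0.55 to 5.00, 4.55 and 4.44, and LNK1 by 5.01. GI was at least 18.1-fold higher and PRR9 at least 4.52-fold higher, both with no leaf array above background. TOC1 read 2.91, 2.84 and 2.89 in the leaves and 3.56, 3.49 and 3.47 in the dark and was not called at 0.62 ± 0.07. Replicates of each clock gene lay close together.

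**Figure D4:**
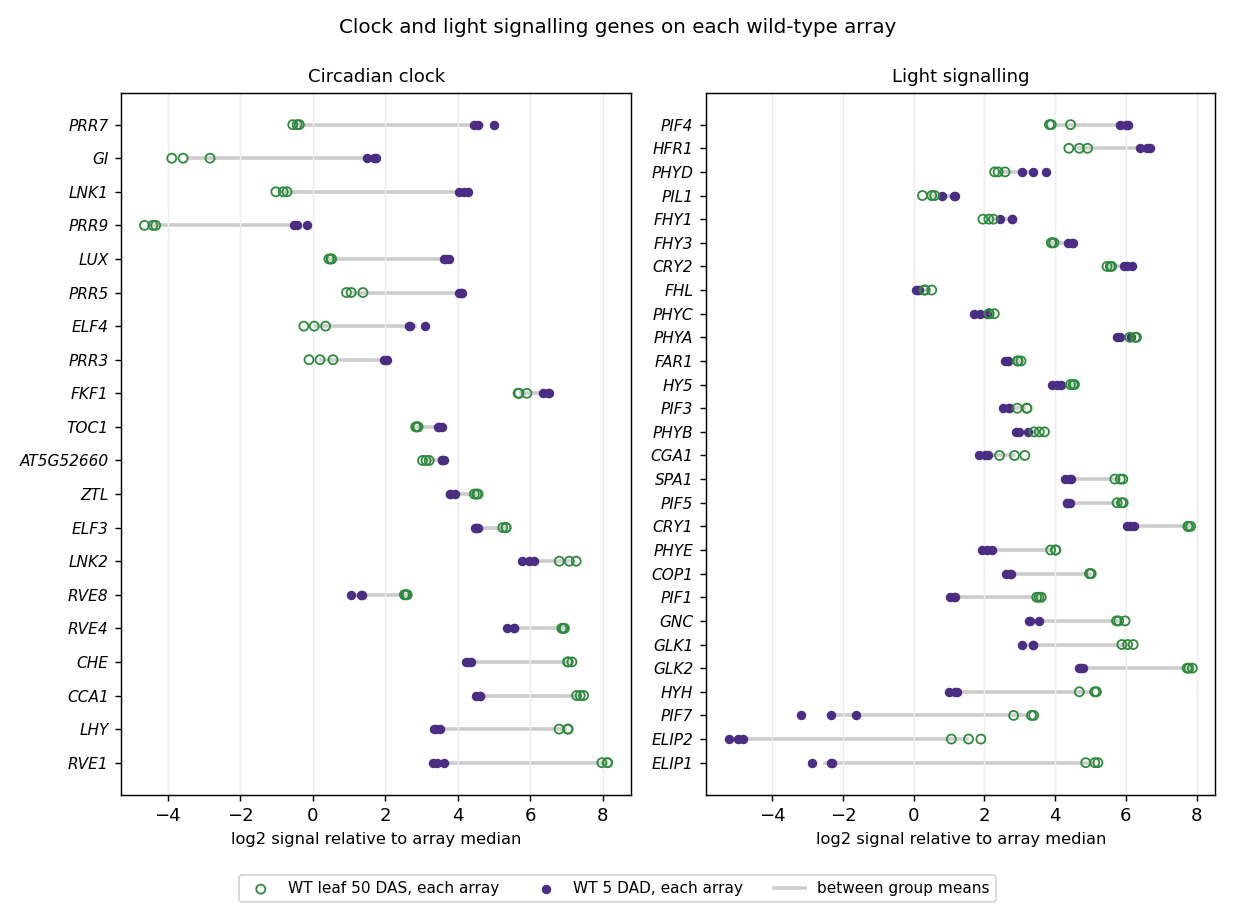
Log2 signal relative to the array median on each WT array for 20 clock genes (left) and 28 light signalling genes (right), open green circles for leaf arrays and filled purple points for dark arrays. CCA1, LHY and RVE1 are lower and PRR7, GI and LNK1 higher in the dark, and PIF4 and HFR1 are the 2 light signalling genes called higher.

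Hormone lists were read beside the shares of all tested genes, 27.6% higher and 24.9% lower. For ethylene, 6 of 16 tested genes rose (37.5%) and 1 fell (6.2%, median 0.38). The synthesis gene ACS2 was at least 205-fold higher, with 5.17, 5.25 and 5.01 in the dark, and the response factor ERF1 rose by 7.16. The signalling factor EIN3 rose by 1.43 ± 0.09 while its homologue EIL1 fell by 1.95. For abscisic acid, 10 of 29 tested genes rose (34.5%) and 7 fell (24.1%, median 0.45), near the shares of all tested genes. NCED2, of the rate-limiting step of synthesis, was at least 81.2-fold higher, and the kinases MAPKKK18 and MAPKKK17 rose by 7.60 (2 of 3 leaf arrays above background) and 6.45. The cold- and abscisic acid-responsive genes COR15A and COR15B fell by 7.99 and 8.04, COR15B from 7.49, 7.23 and 7.33 to -0.74, -0.68 and -0.64.

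For salicylic acid and defence, 9 of 12 genes were called higher and none lower (median 3.09). The regulator CBP60G rose by 5.13 ± 0.20, from 1.73, 1.12 and 1.25 to 6.63, 6.64 and 6.23, PBS3 by 4.77 and the synthesis enzyme ICS1 by 4.47. The pathogenesis-related marker genes were high on leaf replicate 1. PR1 read 3.01, -3.98 and -4.16 in the leaves and 1.86, 1.90 and 1.81 in the dark. It was called higher at 3.57 ± 1.92 (adjusted p = 0.132) although the groups overlapped, and leaf replicate 1 was the 1 leaf array above background. Against the other 2 leaf arrays PR1 was at least 19.0-fold higher. The call was lost when any 1 of the other 5 arrays was left out. PR2 (-0.51) and PR5 (-0.27) overlapped between groups and turned to 0.37 and 0.53 without leaf replicate 1. For jasmonate, 5 of 10 tested genes rose and 2 fell (median 0.86). The synthesis genes AOC1 and OPR3 rose by 4.25 and 3.45 and AOC3 was at least 11.4-fold higher, whereas the response gene VSP1 fell by 3.25 ± 0.74, from 1.57, -0.89 and -0.33 to -3.94, -2.19 and -3.26, and by 2.52 without leaf replicate 1. Of 9 tested type-A response regulators of cytokinin signalling 4 fell and none rose, among them ARR9 (-4.31) and ARR15 (at least 62.0-fold lower).

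Most genes of growth and of the flavonoid pathway fell, against 24.9% of all tested genes called lower and 27.6% called higher. Of 9 tested alpha-expansins, which loosen cell walls, all fell (median -6.42): EXPA8 by 8.75 ± 0.18, from 6.35, 6.63 and 6.66 to -2.29, -1.85 and -2.47, and EXPA5 at least 235-fold. EXPA9 fell by 1.47, and gave -0.68 with normexp background correction. Of 25 tested genes of the cell cycle and DNA replication 16 fell and 1, AUR2, above background on 1 leaf array, was called higher (median -1.68), but these genes are dim: 8 were called lower with normexp and 7 when every array had to be above background. MCM7, of the replicative helicase, fell by 3.85, and the cyclin CYCB1;4 was at least 13.9-fold lower. Of 9 tested flavonoid genes 6 fell and 1 rose. CHS, chalcone synthase, fell by 5.38, F3H by 6.14 and FLS1 at least 44.8-fold, while TT19, a glutathione transferase of anthocyanin transport, rose by 5.19 with 1 leaf array above background. Of 11 genes of phase change and flowering 6 fell (54.5%) and none was called higher. FT, the mobile flowering signal, fell by 5.19 ± 0.25, from 0.97, 1.13 and 1.08 to -4.26, -3.57 and -4.55 (2 of 3 dark arrays above background), and its activator CO was at least 99.4-fold lower. FLC gave 0.84 and overlapped between groups, with 1 leaf array above background.

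Marker genes were used to compare the sampled tissue, since the labels name leaf for one group and seedling for the other. In bulk samples, fewer cells of a type and less RNA per cell cannot be told apart. Of 24 root markers, 4 to 6 were well above background on each leaf array and 12 to 15 on each dark array, yet the summed signal was 36.8 to 38.5 in the leaves and 6.82 to 7.01 in the dark. The sum rested on SHR and SCR, which fell by 3.52 and 2.66. Apart from SHR, SCR, FRO2 and NRT2.1, the other 20 root markers had mean dark signals between -5.28 and -2.46, and 7 of them, including PLT1, CASP1, IRT1 and SMB, were above background on none of the 6 arrays. A contribution of root tissue to other genes was not tested beyond these levels. Of 8 meristem markers none was above background on any leaf array and 2 to 5 on the dark arrays, at summed signals of 0.456 to 0.583 and 0.485 to 0.646.

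Of 8 flower markers, 1 to 4 were above background on the leaf arrays and 5 or 6 on the dark arrays, and the summed signal was 1.18 to 3.61 and 24.7 to 33.2. On the dark arrays 94.9% to 97.3% of that sum was PI, a floral homeotic gene, with 4.55, 5.01 and 4.70 in the dark and -0.48, -5.28 and -1.76 in the leaves. On the leaf arrays SEP1 made up 28.1% to 81.1% of the sum and PI 0.71% to 25.8%. LFY and SEP2 were above background on no array, and SEP1 was called lower with overlapping groups. Of 6 guard cell markers 4 fell (66.7%), with TGG1, a myrosinase, at -5.69. Of 6 phloem markers 4 fell (66.7%), with the sucrose transporter SUC2 at -2.13 and the sieve element protein SEOR1 at -2.83. Of all tested genes 24.9% were called lower. The part that tissue composition had in the list results was not tested.

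The dark and leaf samples of the other genotypes gave a second difference that shares no array with the first: the mean of KO and SRDX at 5 DAD minus OX leaf at 50 DAS. These 9 arrays lay on other slides but on the same scan days, and genotype differed with treatment, so the values are set side by side as a description with no test of their difference. By the same limits 6225 genes were higher (24.0%) and 5741 lower (22.1%). Across the 25949 genes the differences correlated at r = 0.854, and 81.5% had the same sign. Of the genes called higher in WT, 4614 (64.4%) were also called higher and 112 lower there. Of those called lower in WT, 4681 (72.4%) were also lower and 46 higher. Seen from the other lists, these shared genes were 74.1% of the genes called higher and 81.5% of those called lower.

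The medians in WT and in the other genotypes were -3.48 and -2.69 for antenna genes, -3.87 and -3.13 for the Calvin cycle, -2.80 and -3.42 for starch synthesis and 5.65 and 4.77 for the DIN genes. Of the DIN genes, all 8 were called higher in both, and of the antenna genes 20 and 19 lower. Among the senescence lists, the medians were 3.88 and 2.17 for NAC factors, 3.58 and 2.53 for WRKY factors, 3.77 and 1.07 for senescence-associated genes, 1.62 and -0.45 for Chl breakdown and 1.02 and -1.28 for vacuolar proteases and nucleases. The difference between the 2 medians of a list was not tested. ANAC046, which is altered in all 3 other genotypes, gave 4.65 in WT and -5.95 there. The second value averages unlike dark means, -4.51 in KO and 6.33 in SRDX, set against 6.86 in OX leaf. BFN1 gave 4.78 and -1.69, and SGR1 3.39 and 0.10. Both sides of the difference departed from WT. The OX leaf means were 4.37 for BFN1 and 5.67 for SGR1, against WT leaf means of 0.46 and 3.37. In the dark BFN1 had means of 2.88 in KO and 2.48 in SRDX, against 5.24 in WT. SGR1 had 5.73 and 5.81, against 6.76 in WT. CCA1 (-2.80 and -3.64), PRR7 (5.11 and 3.55) and ORE1 (2.81 and 2.80) gave values of the same sign in both.

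**Figure D5:**
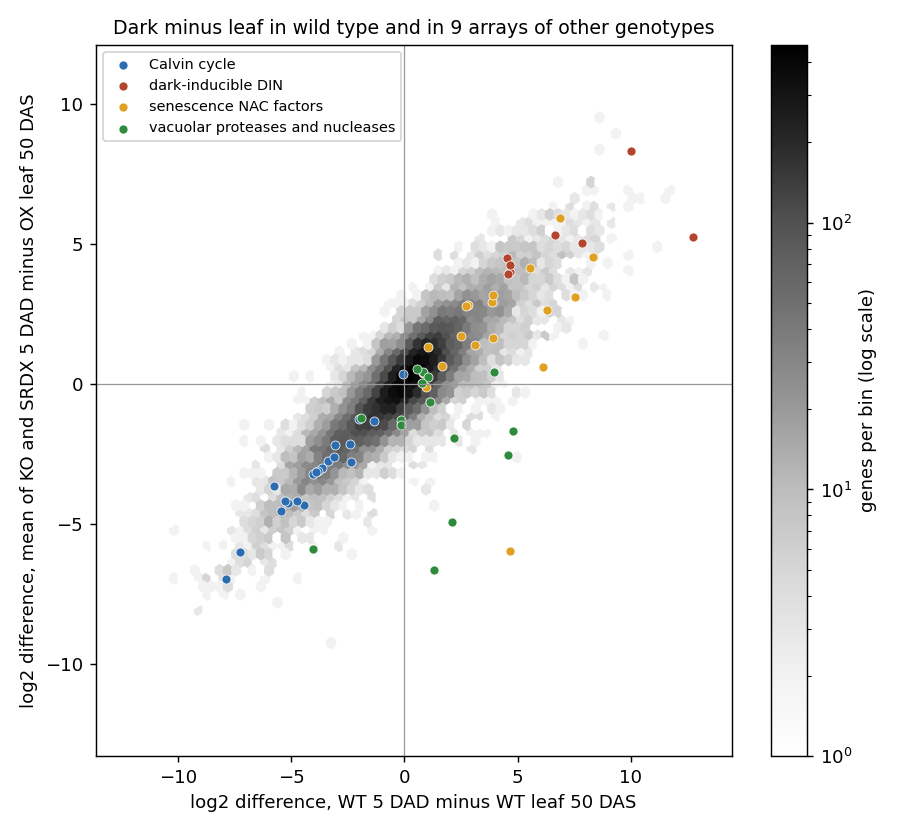
Log2 difference between dark and leaf in WT (horizontal) against the mean of KO and SRDX at 5 DAD minus OX leaf at 50 DAS (vertical) for 25949 genes, binned in grey on a log colour scale, with 4 lists as coloured points. Calvin cycle genes apart from CP12-1 lie below 0 and DIN genes above 0 on both axes. DIN2 lies far from the diagonal, at 12.74 on the horizontal and 5.23 on the vertical axis. Several vacuolar proteases and nucleases and ANAC046 lie below 0 on the vertical axis and above 0 on the horizontal axis.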

How the data were processed

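The 6 WT arrays were analysed for the dark and leaf comparison, and all 15 arrays, 3 in each of 5 groups, were normalized together. The authors deposited 1 table of spot intensity values per array, from Agilent Feature Extraction. The file headers name version 11.5.1.1 and the labels version 9.1.3.1. The background had been subtracted and the values were not scaled between arrays. They also deposited a table of log values. The log base is not stated, and from their range they were read as natural log values that the authors had median-scaled and quantile normalized, since all columns share 1 median. This table served as an alternative only. Samples were grouped by their labels.

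Spots flagged as outliers, 1 to 13 per WT array, were left out. Signals were divided by the array median, repeated spots averaged, the 15 arrays quantile normalized and log2 taken. Probes were matched by accession to RefSeq TAIR10.1, and 34348 of 43603 probes (78.8%) obtained a locus. Names come from that table, and the brightest probe stood for a locus. Testing required a signal flagged well above background on all 3 arrays of at least 1 WT group. The 2 WT groups were fitted with limma 3.58.1 in R 4.3.3 (lmFit, eBayes), called at a Benjamini-Hochberg adjusted p under 0.15, the limit of the Methods, and at least 2-fold. Where a probe was above background in 1 group only, a lower bound of the fold is given. An exact permutation test of 3 against 3 cannot go below 0.1 and was not used. Array number and signal over background, not read depth, limit the precision.

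The members and gene lists were chosen with earlier results of these data known. Genes were named by rule: the 12 largest increases and decreases and the 5 largest bounds in each direction, and of each list up to 4 called members in each direction plus its defining members. A few list members short of the limits were named after their values were seen. Fits were tested on simulated data. Scaling, background correction, filters, probe summary, limits, fit, replicate block and leave-one-out were varied. Planned promoter motifs were not analysed here. Figures were drawn with matplotlib 3.10.9.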

Additional observations from a re-analysis of the deposited data

How the results depend on the processing

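The counts of 7170 genes higher and 6464 lower in the dark stayed within 1.5 times of these values under 75th percentile scaling (8634 and 6123), normexp background correction (4813 and 5254), the authors' table (5355 and 4956) and the other settings, except as follows. Without a minimum fold 11918 genes were higher and 10438 lower. Probes above background on all 6 arrays gave 4100 higher and 5602 lower, out of 19512 tested, so that 42.3% of called genes were higher in place of 52.6%. Without each array in turn, 7128 to 7273 genes were higher and 6395 to 6526 lower. Same-numbered arrays deviated together at r = 0.02, -0.02 and 0.12, against -0.08 to 0.06 for arrays of unlike number. These values do not settle whether the replicate numbers paired the arrays. The fit with the replicate block gave 7166 higher and 6467 lower.

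Values that turned sign were small or noisy: CLH1 (-0.11 to 0.56 without each array in turn, lowest without dark replicate 1), CP12-1 with normexp (0.044), AGT1 under 75th percentile scaling (-0.14), and, as the mean of all probes, WRKY57 (0.047), gamma-VPE (0.49) and PIF3 (0.20). PR2 (-1.12 to 0.37) and PR5 (-0.77 to 0.53) turned without leaf replicate 1. The cause was not tested. Among the named genes, calls for VSP1 (-0.95 as the mean of all probes), AUR2 (0.89) and SPL9 (-0.90, both with normexp) and GLN1;4 (-0.64 in the authors' table) were also lost. Root markers called higher varied from 0 to 6 between settings. Low signal over background on the leaf arrays limits genes that were dim there.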

Other observations

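A few gene families were looked at after the largest changes had been seen, with members taken by symbol from the reference table, so their counts are a description. Of 10 tested genes of subunits or assembly factors of the chloroplast NDH complex, 9 fell and none rose (median -6.36). Among the 9 with signal on all 6 arrays the differences ran from -9.42 for NdhL to -0.94 for CRR6, an assembly factor, and NdhU was above background on 1 dark array. The median of the 21 antenna genes in the same samples was -3.48. The NDH genes were picked after members were seen among the largest decreases, so the medians cannot be ranked. Of the alternative oxidases, AOX1D rose by 9.0 and AOX1A by 3.1. AOX1B was above background on no leaf array and at least 1.1-fold higher.

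The XTH family, which remodels cell wall xyloglucan, had members called in both directions. Of 24 tested members 9 were called higher and 9 lower, of which 6 and 5 had signal on all 6 arrays. Of all tested genes, 27.6% were called higher and 24.9% lower, so the split is not read as a trait of the family. XTH11 rose by 9.08 and XTH7 was at least 3125-fold lower. XTH21 and XTH26, among the 9 called higher, had no leaf array above background and bounds under 2-fold. Auxin-responsive families mostly fell. Of 18 Aux/IAA genes 12 fell and 2 rose (median -2.57), and of 14 genes whose main symbol in the table is SAUR 11 fell and 2 rose (median -5.58, or -4.83 with genes above background in the leaves alone set at their bound). The 2 that rose were SAUR36, by 5.76, and AT5G01830, by 2.60, which is counted only because the table gives it the symbol SAUR21. AT5G18030, which has a SAUR name there only as a synonym and was at least 514-fold lower, is not among the 14. Whether each symbol marks a true family member was not tested, so the count and median hold for the symbols alone.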
